A study of Mus musculus with 40 samples.

Results

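Trimethylation of lysine 4 on histone H3 (H3K4me3) was compared between 2 cold-exposed and 2 warm mice kept on a high-fat diet (HFD). The members were the genomic regions that result when the H3K4me3 peak lists of these 4 mice are merged wherever peaks overlap by at least 1 bp. There were 24543 such regions, against 28739 when all 8 H3K4me3 lists of the series were merged. Each region was sorted by the mice that had a peak in it. A region with a peak in both cold mice and in neither warm mouse was called cold-only, and 529 of 24543 regions (2.16%) were. A region with a peak in both warm mice and in neither cold mouse was called warm-only, and 6 regions (0.0244%) were. The remaining regions had a peak in all 4 mice or in another combination.

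The mice were wild type C57BL/6N animals, 20 weeks old, fed HFD for the last 12 weeks, and the tissue was interscapular brown adipose tissue (iBAT). The cold group (cold_hfd, mice 10 and 11) was exposed to 4 °C for 24 h, and the warm group (warm_hfd, mice 7 and 8) was not. The series holds 40 samples, which also cover normal chow diet (NCD, warm mice 1 and 2, cold mice 4 and 5), 3 further histone marks and the inputs, which are chromatin sequenced without enrichment. Each list carries 1 mouse number, whereas a sentence of the methods may mean that the tissue of 2 mice went into each experiment. A p value here therefore measures the spread between these libraries. The tissue is a mixture of cell types, so more cells that carry the mark and more mark per cell cannot be told apart.

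H3K4me3 is placed around transcription start sites by SET1 and MLL methyltransferase complexes, and it marks promoters that are active or ready for transcription, most of all those rich in CpG dinucleotides. In brown adipocytes, cold acts through noradrenaline, β-adrenergic receptors and cyclic AMP to raise lipolysis, fuel uptake and the expression of Ucp1, whose product uncouples respiration from ATP synthesis. A promoter that is already marked can be transcribed more strongly without a wider or higher H3K4me3 peak, so the mark and the transcript need not move together.

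In all, 5 windows of 200 bases around the peak summit are shown as examples, not as a summary of the classes. Of these, 3 are from cold-only regions within 1000 bp of a start site of a protein-coding gene. The other 2 are from the warm-only regions that kept their class when equal numbers of peaks were taken from each list. All are plus-strand GRCm38 sequence from the RefSeq genome. Capitals mark a match, on either strand, to a cyclic AMP response element half-site (TGACG), an E-box (CACGTG), a GC box (GGGCGG) or a CCAAT box.

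Fgf21, chr7:45615110-45615309: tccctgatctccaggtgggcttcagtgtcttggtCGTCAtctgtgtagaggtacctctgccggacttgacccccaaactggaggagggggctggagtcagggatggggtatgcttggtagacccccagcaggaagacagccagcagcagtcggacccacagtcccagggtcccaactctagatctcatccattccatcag

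Zfp473, chr7:44745089-44745288: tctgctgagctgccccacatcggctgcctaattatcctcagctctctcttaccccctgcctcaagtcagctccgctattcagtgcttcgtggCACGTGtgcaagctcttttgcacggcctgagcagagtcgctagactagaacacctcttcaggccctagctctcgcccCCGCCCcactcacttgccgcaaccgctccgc

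Bcl6b, chr11:70229207-70229406: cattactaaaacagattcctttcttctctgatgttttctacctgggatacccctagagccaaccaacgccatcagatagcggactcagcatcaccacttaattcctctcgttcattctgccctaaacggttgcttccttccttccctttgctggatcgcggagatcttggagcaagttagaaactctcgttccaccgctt

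Cldn34d intron, chrX:76598888-76599087: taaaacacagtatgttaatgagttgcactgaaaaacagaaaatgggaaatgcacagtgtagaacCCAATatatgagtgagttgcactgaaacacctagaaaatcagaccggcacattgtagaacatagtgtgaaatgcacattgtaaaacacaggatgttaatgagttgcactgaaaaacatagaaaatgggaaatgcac

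Vps45 intron, chr3:96044611-96044810: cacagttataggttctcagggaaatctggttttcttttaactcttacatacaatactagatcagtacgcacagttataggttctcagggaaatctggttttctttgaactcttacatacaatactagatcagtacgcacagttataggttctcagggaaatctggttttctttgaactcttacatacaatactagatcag

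The Fgf21 window held 1 half-site and the Zfp473 window 1 E-box and 1 GC box, whereas none of the motifs searched was present in the Bcl6b window. GC content was 58.5% at Fgf21, 60.0% at Zfp473 and 47.5% at Bcl6b. The printed warm-only windows were poorer in GC, with 36.5% in Cldn34d and 36.0% in Vps45. They lay below the median of all 6 warm-only regions, 44.75%, and that of the 529 cold-only regions was 55.5%. The Vps45 window is a tandem repeat: 99.2% of its bases equalled the base 68 positions further on. In the Cldn34d window the best such period was 86 bases, at which 64.0% of bases were equal.

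The 4 lists were unequal within both temperatures. Mouse 7 had 13517 peaks and mouse 8 had 19079, while mouse 10 had 17195 and mouse 11 had 24104. The values of the groups overlapped, and the mean log10 number differed by 0.103 (cold minus warm; exact permutation test, two-sided, p = 0.667, where 2 against 2 cannot go below 0.333). Median peak width was 597 and 1010 bp in mice 7 and 8 and 896 and 1031 bp in mice 10 and 11. The bases covered amounted to 9.80, 22.5, 17.9 and 31.2 Mb in mice 7, 8, 10 and 11. The summit lay within 1000 bp of a start site for 86.0%, 74.1%, 80.6% and 60.3% of the peaks, in the same order. Width, coverage and this share gave the same exact p of 0.667, so none of them separated the temperatures.

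Scaling by the peak caller followed pairs of mice rather than temperature. These are called depth pairs below, where depth means that of a library against its input. The peak caller had scaled the libraries by 0.192 in mouse 7 and 0.178 in mouse 10, and had left mice 8 and 11 unscaled. Such a factor sets a library against its input, so it does not give the depth of the H3K4me3 library itself. The genome-wide background was 2.40, 1.85, 2.64 and 1.91 fragments over a base in mice 7, 8, 10 and 11. A fragment here is a sequenced piece of immunoprecipitated DNA that covers the summit, recovered as a whole number from the fold and the p value of each peak. Between 95.3% and 97.5% of the peaks in these lists gave such a number. The weakest listed peak held 21 fragments in mouse 7 and 23 in mouse 10, but 8 in mice 8 and 11, so a site had to be stronger to enter the lists of mice 7 and 10.

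Sharing between the mice was uneven in the same way. A peak in all 4 mice was found in 10125 regions (41.3%), and 6853 regions (27.9%) had a peak in mouse 11 alone. All mice except mouse 7 had a peak in 3730 regions (15.2%), and mice 8 and 11 alone shared 2498 (10.2%). The cold-only class, at 529, was about as large as the set found in mouse 8 alone, at 527. A peak in mouse 10 alone was found in 30 regions and in mouse 7 alone in 11. Without mouse 8 or mouse 10 the cold-only count became 4271 or 7398, and without mouse 7 or mouse 11 the warm-only count became 533 or 193. Leaving out a mouse removes a condition from the rule, so larger counts follow in part from the rule itself.

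When the 13517 peaks with the smallest p value were taken from every list, 14485 regions resulted. Of these, 9315 (64.3%) had a peak in all 4 mice, 373 (2.58%) were cold-only and 71 (0.490%) were warm-only. The excess of cold-only over warm-only regions was thus 529 to 6 with the full lists and 373 to 71 with lists of equal length. Most of the 373 were not without a peak in the warm mice: 339 of them had one in the full list of mouse 8, which ranked outside its top 13517. Likewise, 69 of the 71 warm-only regions had a peak in a full cold list, 42 of them in mouse 10. Both procedures gave the same class for 34 cold-only and 2 warm-only regions, called stable below.

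**Figure D1:**
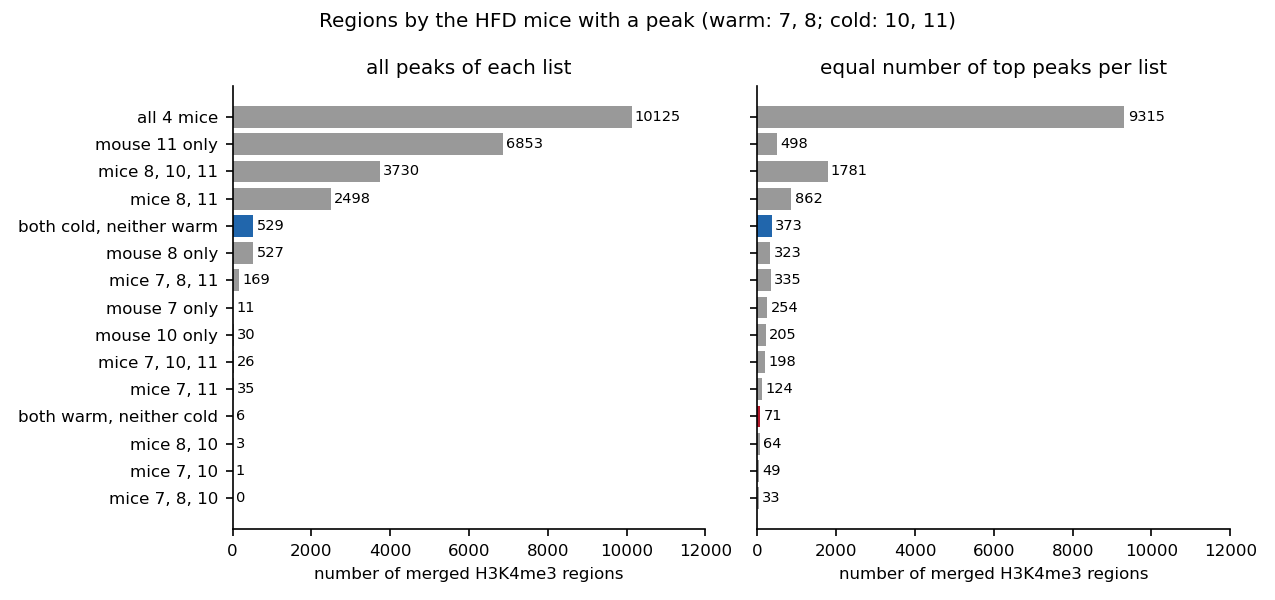
Number of merged H3K4me3 regions (x axis) for each combination of HFD mice with a peak (y axis), with all peaks of each list (left) and with 13517 top peaks per list (right). Cold-only regions numbered 529 and 373 and warm-only regions 6 and 71, both small beside the 10125 and 9315 regions found in all 4 mice.

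The cold-only regions were short and lay less often at promoters than regions shared by all 4 mice. Of the 529, 178 (33.6%) lay within 1000 bp of a start site, 135 of them of a protein-coding gene. The share was 90.5% for regions found in all 4 mice, 61.4% for all regions and 22.0% for those in mouse 11 alone. Their median width was 638 bp, against 1875 bp for regions in all 4 mice and 323 bp for mouse 11 alone. By the summit of the highest peak, 90 lay in an exon, 258 in an intron and 181 (34.2%) between genes, against 11.4% between genes for the regions in all 4 mice and 29.5% for mouse 11 alone. In width and in the share at start sites they thus stood between the shared regions and those seen in the longest list alone, and in the share between genes above both.

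Base composition in the 200 bases around the summit was also lower in GC than that of the shared regions. Median GC content was 55.5% in cold-only regions, 61.5% in regions of all 4 mice, 51.5% in those of mouse 11 alone and 58.0% in all regions, and the median number of CpG dinucleotides was 6, 12, 4 and 9. A GC box occurred in 13.0% of cold-only windows, against 27.8% of those in all 4 mice, 11.1% in mouse 11 alone and 23.0% of all windows. The motifs did not follow a single order: the half-site was found in 10.8% of cold-only windows, 15.9% in all 4 mice, 11.8% in mouse 11 alone and 13.7% of all windows, and the full cyclic AMP response element (TGACGTCA) in 2 cold-only windows (0.378%) and 0.282% of all. The AP-1 motif (TGANTCA) stood in 3.40% of cold-only and 3.27% of all windows. An E-box was present in 4.91% of cold-only windows, 3.19% in all 4 mice, 3.46% in mouse 11 alone and 3.36% of all. The ERR element (TCAAGGTCA), to which oestrogen-related receptors bind, stood in 5 cold-only windows (0.945%), against 0.306%, 0.513% and 0.380%. The binding site of NRF1, a regulator of nuclear genes for mitochondria, matched no cold-only window and 0.0735% of all. Both strands were searched, and these shares are descriptions without a test.

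Peaks of the cold-only class were weak in both cold mice. The median was 36 fragments in mouse 10, where the weakest 5% of all peaks held at most 35, and 21 in mouse 11. Their median −log10 q was 3.80 in mouse 10 and 12.0 in mouse 11, against 22.3 and 115 for regions in all 4 mice. Those medians stood at the 12.2 and 34.8 percentile of the peaks of mice 10 and 11. The strongest cold-only peak reached 77 fragments in mouse 10 and 55 in mouse 11, still below the medians of 168 and 98 for regions found in all 4 mice. Whether such sites were unmarked in the warm mice or below the limit of their lists cannot be told apart from peak lists.

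The mice on NCD had no part in sorting the regions. Of the 529 cold-only regions, 70.7% and 77.7% had a peak in the warm NCD mice 1 and 2, and 80.9% and 84.7% in the cold NCD mice 4 and 5. Over all 24543 regions the shares were 76.2%, 78.4%, 75.2% and 78.0%. All 4 NCD mice had a peak in 310 (58.6%) of the cold-only regions, and none had one in 33 (6.24%). Most sites that were cold-only on HFD were therefore marked on NCD at either temperature. Only 47 (8.88%) repeated the pattern of both cold and neither warm mouse, against 2.78% of all regions.

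With the 13517 top peaks of the NCD lists as well, the cold-only regions had a peak in 66.8% and 75.9% of cases in the warm NCD mice and in 79.4% and 80.2% in the cold NCD mice. The warm-only regions showed the opposite order, with 59.2% and 57.7% in the warm and 12.7% and 9.86% in the cold NCD mice. The corresponding shares of all regions were 89.7%, 91.4%, 87.5% and 89.3%. Of the 71 warm-only regions, 26 (36.6%) were also present in both warm and neither cold NCD mouse, against 3.31% of all regions. Base composition moved with this: median GC content was 46.0% in the warm-only, 59.5% in the cold-only and 62.5% in all regions from these lists. On NCD the cold minus warm difference of a region rose with its GC content (Spearman's rho 0.372 across 8852 regions of 4 libraries), and on HFD it did not (0.00734 across 9248 regions). The part of GC content in the repeated pattern was not tested.

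**Figure D2:**
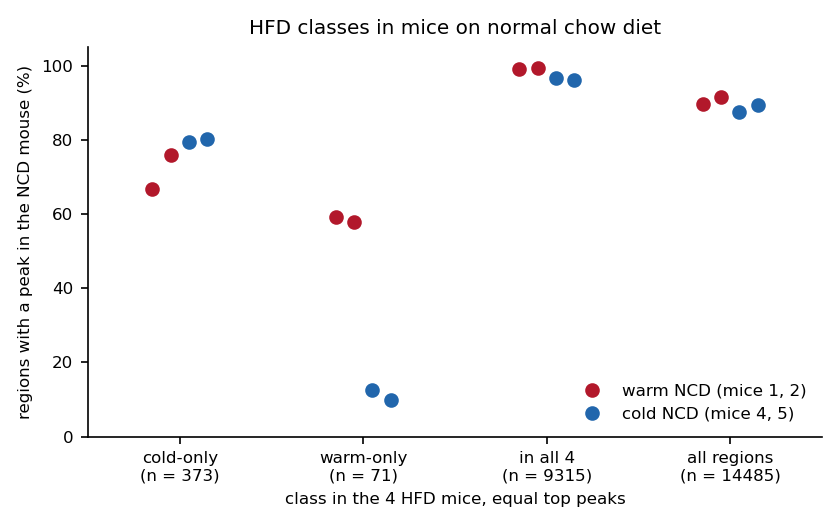
Share of regions (y axis, percent) with a peak in each NCD mouse, for classes set in the HFD mice from equal numbers of top peaks (x axis); each point is 1 mouse. Warm-only regions had a peak in 59.2% and 57.7% of cases in warm and 12.7% and 9.86% in cold NCD mice, while the points of all regions lay between 87.5% and 91.4%.

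Among the 26, 5 lay at a start site, those of Gm34006, Prune2, Dab2ip, Fap and Chn1, while Fap encodes fibroblast activation protein, a surface protease of stromal cells. At the Fap region (chr2:62573600-62574171) −log10 p was 7.47 in mouse 7 and 17.0 in mouse 8, and the full lists of both cold mice also held a peak there. Of the 373 cold-only regions, 15 (4.02%, against 3.31% of all) showed the reverse pattern on NCD, both warm and neither cold mouse. Another 27 (7.24%, against 1.20% of all) repeated their pattern on NCD, and 18 of these lay at a start site. They included Axl, a receptor tyrosine kinase, Drd1, the dopamine D1 receptor, Tpm1, a tropomyosin of actin filaments, and Dsc2, a desmosomal cadherin. The repeated patterns rest on the shortened NCD lists: in the full lists all 27 had a peak in a warm NCD mouse, and 22 of the 26 had one in a cold NCD mouse. At Drd1 (chr13:54054599-54055914) −log10 p was 16.3 in mouse 10 and 53.0 in mouse 11. All 18 except Dsc2 also had a peak in the full list of mouse 8. These genes were picked out after their values were seen.

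The same mice had lists for H3K27 acetylation (H3K27ac), which marks active promoters and enhancers. Those lists held 3224, 33798, 14511 and 40604 peaks in mice 7, 8, 10 and 11. An H3K27ac peak lay in 4.91%, 34.6%, 34.8% and 53.9% of the cold-only regions in mice 7, 8, 10 and 11. For all regions the shares were 6.25%, 51.3%, 26.8% and 60.4%. Cold-only regions were thus above the share of all regions in mouse 10 and below it in the other mice.

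The 8 cold-only regions with the highest −log10 q among the 34 stable ones had peaks in all 4 NCD mice. Bcl6b, which encodes a transcriptional repressor related to BCL6, had a region of 3151 bp at its start site (chr11:70228032-70231182) with 73 fragments in mouse 10 and 37 in mouse 11. Its −log10 q was 11.5 and 29.9, and mice 8, 10 and 11 had an H3K27ac peak there. At Zfp473, a zinc finger gene, the region (chr7:44744906-44745369) held 57 and 51 fragments and lay 676 bp from a start site. With lists of equal length this gene had 2 regions, which together held a peak in the warm mouse 8 as well as in mice 10 and 11. H2-DMa, which helps to load peptides onto MHC class II, had 61 and 37 fragments in a region over its first exon (chr17:34135462-34136056). Dsc2 held 52 and 45, and the antisense gene Gm10425 inside Exoc3l4 held 63 and 44. The other 3 lay away from start sites. They were in introns of Zfand1 (chr3:10342332-10342999) and Gm10030 (chr9:110994784-110995194), and between genes, 47875 bp from the start site of Tmem44 (chr16:30502363-30502955). None of the 34 regions was without a peak on NCD, and 32 had one in all 4 NCD mice.

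Both stable warm-only regions lay in introns and stood on a raised local background. The Cldn34d region (chrX:76598658-76599123) held 262 fragments in mouse 7 and 264 in mouse 8, over a background of 57.4 and 55.0. The Vps45 region (chr3:96044557-96044957), the tandem repeat printed above, held 85 and 58 over a background of 15.6 and 5.35, and no NCD mouse had a peak there. Of the other 4, the only region at a start site was that of Hephl1 (chr9:15111080-15112109), a ferroxidase-like gene, with 48 and 24 fragments. The others lay in introns of Dhrs7, Fam13a and Plet1, with 29 to 33 fragments in mouse 7 and 17 to 20 in mouse 8. Together, 5 of the 6 regions had a peak in both warm NCD mice and none had one in a cold NCD mouse.

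Among 17364 genes with a region at a start site, 146 (0.841%) had a cold-only and 1 (0.00576%) a warm-only one. All 4 mice had a peak at 11891 genes (68.5%), and at 2868 (16.5%) only mouse 7 lacked one. Among the genes of 8 lists tied to brown fat, lipid and glucose metabolism, secretion, clock, immediate early and stress responses, Fgf21 was the single cold-only member and none was warm-only. Fgf21 is a hormone that acts on energy balance through FGFR1 and β-klotho. Its region of 1046 bp (chr7:45614427-45615472, minus-strand gene) had its summit in exon sequence and ended 18 bp from a start site. It held 66 fragments in mouse 10 and 28 in mouse 11, with −log10 q of 10.1 and 19.4. An H3K27ac peak was present there in both cold and in neither warm HFD mouse. The short H3K27ac list of mouse 7 held a peak in only 6.25% of all regions, and the share of regions with this pattern was not counted. On NCD, all 4 mice had the H3K4me3 peak, and with lists of equal length only mouse 10 kept it.

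Other secreted factors were marked in some or all of the mice, or in none. Gdf15, a stress-induced cytokine that lowers food intake, had a peak in mice 8, 10 and 11 (chr8:70629559-70631624) with 44, 138 and 54 fragments. An H3K27ac peak was found there in the cold mice alone, with the same limit from the short list of mouse 7. Bmp8b, a thermogenic factor of the BMP family, held 13, 35 and 26 fragments in mice 8, 10 and 11. Adipoq, Nrg4, Vegfa and Metrnl had a peak in all 4 mice, while Lep, Retn, Cfd, Il6 and Agt had none in any of them.

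The thermogenic promoters were marked at both temperatures. Of 20 genes, 19 had a peak in all 4 mice, and Prdm16, a regulator of brown fat identity, lacked one in mouse 7 alone, with 68, 130 and 75 fragments in mice 8, 10 and 11. Ppargc1a, the coactivator of mitochondrial biogenesis, held 138, 67 and 96 fragments in mice 7, 8 and 11, and no whole number was recovered for its peak in mouse 10. Adcy3, an adenylate cyclase that makes cyclic AMP, held 72, 71 and 86 in the same mice. All 18 genes of lipolysis and fatty acid oxidation and all 13 of fuel uptake had a peak in all 4 mice, as did 17 of 18 lipogenic genes. The exception was Acaca, acetyl-CoA carboxylase 1, whose region (chr11:84173286-84178230) held 84, 55 and 33 fragments in mice 7, 8 and 11 and no peak in mouse 10.

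In the clock list 14 of 17 genes were marked in all 4 mice, and Npas2, Per2 and Ciart lacked a peak in mouse 7 only. The immediate early list had 14 of 17, with Egr1, Egr2 and Egr3 lacking in mouse 7. Among 16 stress genes, 13 were marked in all 4, and Trib3, Chac1 and Hspa1a lacked in mouse 7. Every incomplete member of these 3 lists thus lacked a peak in the shortest list alone, a pattern found at 16.5% of all marked genes.

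The cell type markers matched a tissue of brown adipocytes. Of 10 brown adipocyte markers, 9 had a peak in all 4 mice and the tenth was Prdm16. All 6 hepatocyte and all 8 lymphocyte markers had no peak, and 7 of 10 macrophage and 5 of 6 neuronal markers had none. Skeletal muscle markers lacked a peak at 11 of 15 genes, among them Acta1, Ckm and Myh4, and the regions at Mylpf and Actn3 also lay at the neighbours Tbc1d10b and Zdhhc24. Of 8 fibroblast markers, 6 had a peak in some of the mice and none in all 4. Endothelial markers were the exception among other cell types, with 7 of 10 marked in all 4 mice and Flt1, Cldn5 and Tie1 lacking in mouse 7.

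The level of the mark was compared over the 10125 regions that all 4 mice shared. The fold enrichment, the deposited ratio of signal over local background, was taken on a log2 scale, quantile normalised and tested with limma. No region passed an adjusted p of 0.05 in either direction (0% higher and 0% lower; smallest Benjamini-Hochberg adjusted p = 0.997). At an unadjusted p of 0.05, 205 regions (2.02%) were higher and 154 (1.52%) lower in the cold. The 5 with the smallest p in each direction, none of which passed, were Pigk, Nthl1, Cpox, Gm27940 and Irak4 above 0 and Rasal2, Ankrd28, Zfp24, Zc3h14 and Mfsd14a below 0. At Pigk, an enzyme of GPI anchor attachment, the fold was 2.10, 14.3, 25.7 and 49.5 in mice 7, 8, 10 and 11. The fragments there were 159, 112, 284 and 143, but the local background was 73.0 in mouse 7 against 6.88, 5.63 and 1.91 in the others. The low fold of mouse 7 thus went with a high background and not with a low number of fragments. With the depth pairs (mice 7 and 10, mice 8 and 11) as a covariate, 9 regions were called higher and 0 lower by limma, the 5 above among them (adjusted p from 0.00547 at Pigk to 0.0318 at Irak4), and with the pairs as a covariate on fragments, described next, 0 were called.

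The fold ranked regions differently from library to library. Spearman's rho between pairs of the 4 lists ranged from 0.0226 to 0.494 for the fold over 10125 regions, and from 0.784 to 0.886 for the fragments over the 9248 regions with 4 recovered numbers. The fragments were therefore tested as well, after the same normalisation, a choice made after the data were seen. The median over these regions was 107, 76, 171 and 99 fragments in mice 7, 8, 10 and 11. Relative to the genome-wide background of each library this was 44.5, 41.1, 64.8 and 51.8, so both cold libraries stood higher above background than both warm ones before normalisation.

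On normalised fragments again no region passed (0% in each direction; smallest limma adjusted p = 0.995). At an unadjusted p of 0.05, 174 regions (1.88%) were higher and 200 (2.16%) lower in the cold. The difference lay between −0.30 and 0.32 on the log2 scale for the middle 90% of regions, with a median of −0.004 and a median standard error of 0.15. Both cold mice were above both warm mice in 1328 regions (14.4%) and below in 1477 (16.0%). Scaling by the background alone, without setting the libraries equal, moved the median of all regions to 0.43 and called 394 regions higher and 0 lower with limma. That shift of the whole distribution cannot be told apart from the enrichment efficiency of the libraries, and the values below are relative to the median region.

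The 8 regions with the smallest p above 0 did not pass the adjustment and are given as values. At Notch4 (chr17:34564149-34565792), a Notch receptor of endothelial cells, 31, 23, 103 and 55 fragments were counted in mice 7, 8, 10 and 11 (log2 difference 0.99 ± 0.16, standard error). At Car4 (chr11:84957303-84960284), a carbonic anhydrase anchored to the membrane of capillaries, the counts were 29, 26, 88 and 60 (0.90 ± 0.19). Sh3tc1 had 34, 27, 98 and 66 (0.90 ± 0.16), and Zfp984, St6galnac4 and Asb7 followed. The remaining regions lay away from start sites. They were in an intron of Cacna1a, 50608 bp from the start site of Ier2, and in an exon of Arhgef25, 2160 bp from that of Slc26a10. Below 0 were Esrrg, oestrogen-related receptor gamma, with 44, 24, 34 and 23 fragments (−0.69 ± 0.16, chr1:187997388-187998237), and Rheb, the GTPase that activates mTORC1, with 65, 34, 45 and 30 (−0.86 ± 0.18). Bri3bp, Hdac6 and Pcdhgc4 were also on that side. Regions 1795 bp from the start site of Tm9sf2, 2329 bp from that of Esr1 and 234765 bp from that of Tle3 completed it.

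**Figure D3:**
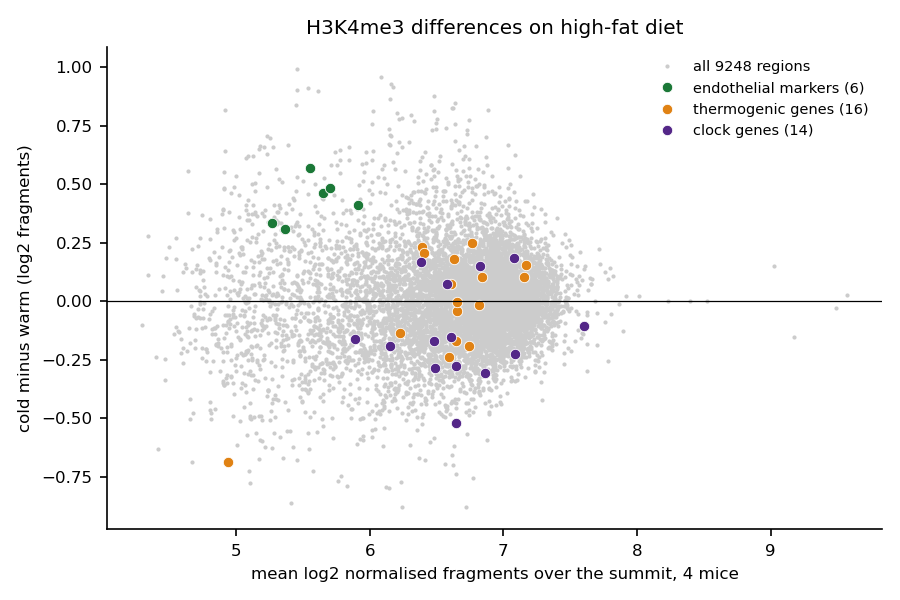
Cold minus warm difference (y axis, log2 normalised fragments) against the mean level of the 4 HFD mice (x axis, log2 normalised fragments over the summit) for 9248 regions in grey, with thermogenic, clock and endothelial genes in colour. Endothelial points lie above 0 at low levels, between 0.31 and 0.57, and the other coloured lists lie on both sides of 0.

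The 6 endothelial genes with fragments in all 4 mice all had higher values in both cold mice than in both warm mice, which occurred in 14.4% of all regions. Their median difference was 0.44 on the log2 scale against −0.004 for all regions. Pecam1, an adhesion molecule of endothelial junctions, held 38, 27, 86 and 56 fragments in mice 7, 8, 10 and 11 (chr11:106711698-106715816). Normalised, these were 37.3 and 39.9 in the warm and 57.3 and 57.3 in the cold mice, a 1.49-fold difference (log2 0.57 ± 0.13, limma unadjusted p = 0.00415). Kdr, the VEGF receptor VEGFR2, held 39, 33, 87 and 58 (0.46 ± 0.16), and Egfl7, a secreted vascular factor whose region also covers Mir126a, held 43, 32, 95 and 59 (0.48 ± 0.14). Esam stood at 0.41 ± 0.14, Emcn at 0.34 ± 0.15 and Tek at 0.31 ± 0.14. None passed over all regions (limma adjusted p = 0.995).

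Gpihbp1, the endothelial anchor of lipoprotein lipase from the fuel uptake list, held 37, 30, 81 and 53 fragments (0.46 ± 0.15), also without overlap between the temperatures. Of the 12 genes with fragments in that list, only this 1 had both cold mice above both warm mice, and 2 had both below. The median of the 6 endothelial genes stayed between 0.37 and 0.49 when 1 mouse was left out, was 0.44 with median centring and 0.88 over background alone, and turned to −0.09 (7 genes) on the fold scale. Level and signed difference were barely related over all regions (Spearman's rho 0.0821 across 9248 regions). The endothelial genes were not compared with regions of a similar level. On NCD, 5 of the 6 genes had a positive difference, with a median of 0.36 against 0.05 for all regions. The mean over the 6 genes, in log2 fragments normalised over 8 lists, was 5.21 and 5.49 in warm and 5.66 and 5.71 in cold NCD mice, and 5.34 and 5.49 in warm and 5.99 and 5.96 in cold HFD mice. The cold mice were thus above the warm mice on either diet, and the number of endothelial cells in the samples was not measured.

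**Figure D4:**
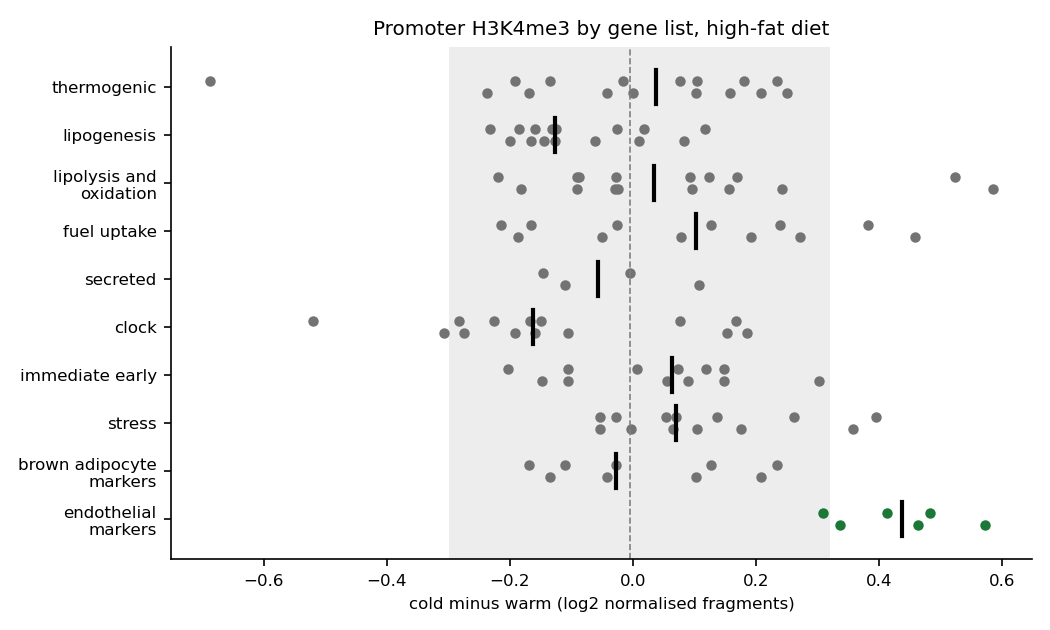
Cold minus warm difference (x axis, log2 normalised fragments) of every list member with 4 recovered numbers (points) by gene list (y axis), with the list median as a black bar and the median of all regions as a dashed line; the grey band spans −0.30 to 0.32, the middle 90% of all 9248 regions. Among the lists drawn, only the endothelial one has all points above 0 with a median of 0.44, and the lipogenic and clock lists have medians of −0.13 and −0.16.

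The members of the other lists spread around 0. In the thermogenic list 8 of 16 genes were above 0 (median 0.04), with both cold mice above both warm mice at 1 gene and below at 3, against 14.4% and 16.0% of all regions. The median ranged from −0.07 without mouse 11 to 0.17 without mouse 10. Ucp1 (chr8:83290302-83295405) held 76, 54, 120 and 97 fragments in mice 7, 8, 10 and 11. Normalised, these were 78.6 and 76.3 in the warm and 78.1 and 106 in the cold mice, so the groups overlapped (0.23 ± 0.18, limma unadjusted p = 0.234). Cidea, a lipid droplet protein, differed by 0.21 ± 0.16, Dio2, the deiodinase that activates thyroid hormone, by −0.17 ± 0.18 and Elovl3, a fatty acid elongase, by −0.13 ± 0.17. All 4 differences were smaller than 2 standard errors.

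For lipolysis and oxidation 8 of 16 genes were above 0 (median 0.03, and −0.07 without mouse 11), with the largest values at Acadl (0.58 ± 0.29) and Abhd5 (0.52 ± 0.28). In both genes mouse 7 stood apart, with 69 and 61 fragments against 90 and 81 in mouse 8. The lipogenic list had 4 of 15 above 0 (median −0.13), and both cold mice were below both warm mice at 6 of the 15, against 16.0% of all regions, among them Fasn, fatty acid synthase (126, 81, 154 and 104 fragments, −0.18 ± 0.15). Fuel uptake had 7 of 12 above 0 (median 0.10, and 0.003 without mouse 11). Both cold mice were above both warm mice at 1 of the 12 and below at 2, against 14.4% and 16.0% of all regions. Fabp4, the fatty acid carrier of adipocytes, held 158, 96, 220 and 172 (0.13 ± 0.18). In the secreted list 1 of 4 was above 0 (median −0.06), and Adipoq, adiponectin, differed by −0.11 ± 0.14. Pparg, the nuclear receptor of adipocyte identity, held 129, 85, 203 and 129 fragments (0.10 ± 0.14).

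The clock list had 4 of 14 genes above 0 (median −0.16), and its median ranged from −0.37 without mouse 11 to 0.02 without mouse 10. Clock itself held 108, 91, 113 and 87 fragments (−0.52 ± 0.18, limma unadjusted p = 0.0227). Nr1d2 varied most within the warm group, with 54 fragments in mouse 7 and 120 in mouse 8. In the immediate early list 8 of 12 were above 0 (median 0.06, and −0.07 without mouse 7) and in the stress list 9 of 13 (median 0.07), with both cold mice above both warm mice at 5 of the 13 stress genes and below at none, against 14.4% and 16.0% of all regions. Hspa5, the chaperone BiP of the endoplasmic reticulum, held 134, 95, 292 and 161 fragments (0.39 ± 0.14, limma unadjusted p = 0.0229). On the fold scale the medians were −0.15 for the thermogenic, −0.02 for the lipogenic, −0.24 for the clock, 0.41 for the immediate early and 0.45 for the stress list, against −0.03 for all regions, so the thermogenic median changed sign with the measure. No member of any list passed over all regions.

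**Figure D5:**
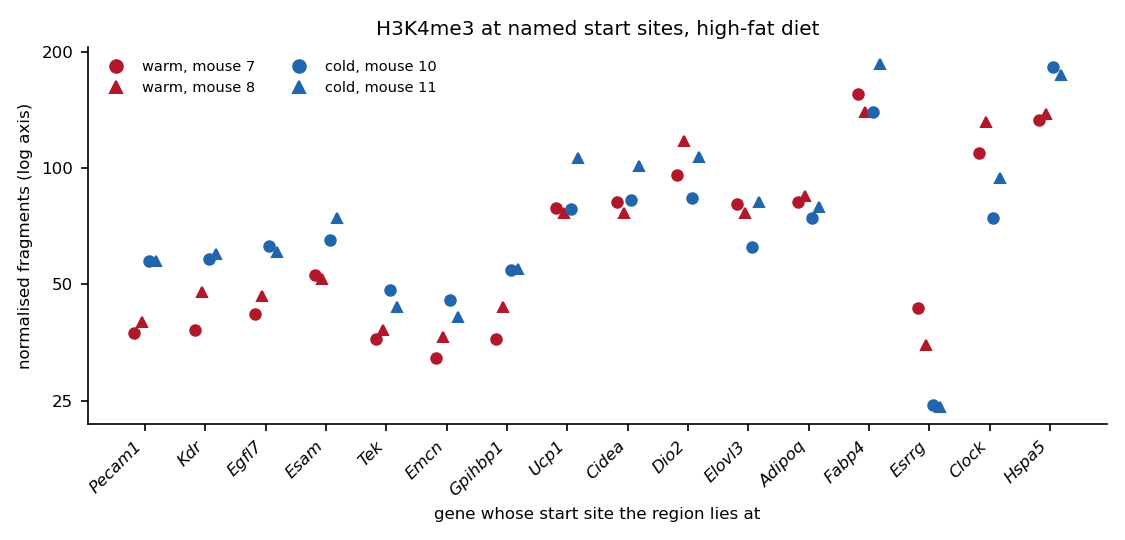
Normalised fragments (y axis, log scale) over the summit of the region at each named start site (x axis), 1 point for each HFD mouse, warm and cold in separate colours. The 6 endothelial genes and Gpihbp1 have both cold points above both warm points, whereas at Ucp1 warm mice at 78.6 and 76.3 and the cold mouse 10 at 78.1 coincide.

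The difference between cold and warm mice was finally compared between the diets. The number of peaks differed by 0.0659 more on HFD than on NCD in log10 units (exact permutation test, two-sided, 2520 assignments, p = 0.657). Of 9842 regions with a peak in all 8 lists, none passed the limma interaction test on the fold (0%; 353 at an unadjusted p of 0.05). On fragments, which was again an added analysis, 174 of 8852 regions (1.97%) had a larger and 39 (0.441%) a smaller difference on HFD. The former had a median difference of 0.07 on HFD and −1.21 on NCD, and a median GC content of 51% against 66% for all. At Med6, a subunit of the Mediator complex, 242, 174, 40 and 49 fragments were counted in the NCD mice 1, 2, 4 and 5, and 151, 91, 192 and 145 in the HFD mice 7, 8, 10 and 11. The contrast lay in the cold NCD mice 4 and 5, whose fragments correlated at 0.954 with each other and at 0.723 to 0.847 with the other mice. These calls became 0 when mouse 1, 2 or 4 was left out and 20 without mouse 5.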

How the data were processed

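H3K4me3 was measured by chromatin immunoprecipitation with sequencing. According to the study's methods and the submitters' processing notes, the authors trimmed reads with cutadapt, aligned them to GRCm38 with Bowtie2 and called peaks with MACS2 against the corresponding input, giving 1 list per library. Their versions and the caller's threshold were not given in the sources used here. Each deposited peak has a fold (a ratio of pileup to local background, each with a pseudocount of 1) and −log10 p and −log10 q values from the authors' peak caller. The total reads of the libraries are not known from these lists, so depth was read from the fragments.

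Groups, mice and all comparisons followed the sample labels. Fragments over a summit were recovered as the whole number that gives both the deposited fold and p (all accepted numbers in the HFD lists within 0.02 of a whole, with 0.1 allowed); numbers that were not unique were left out. Levels were tested with limma 3.58.1 in R 4.3.3 with Benjamini-Hochberg adjustment over all regions at an adjusted p of 0.05, using the highest peak of a region. Python 3.11.15 with numpy 2.4.6, pandas 2.3.3 and scipy 1.17.1 did the rest. The recovery of fragments and the limma fit on the fold were run on simulated data. In the limma case every region had the same spread, so it does not show how the fits behave on these libraries. Genes came from the GRCm38 annotation within 1000 bp of a start site, and a gene with several regions was given by its highest. Overlapping and bidirectional genes share a region and cannot be told apart. In all, 20 lists of the series were not used.

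Named genes were the 8 stable cold-only and the stable warm-only regions with the highest median −log10 q, the regions with the smallest limma p, list members that were cold-only, warm-only or called, and 12 genes given whatever their values. Members and lists were chosen with earlier results of these data known.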

Additional observations from a re-analysis of the deposited data

Results flagged for a closer look

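Differences between cold and warm mice that differed between the diets by the limma interaction test on fragments were marked for a closer look. There were 213 such regions, of 8852. Among list members, the difference on HFD minus that on NCD was −1.44 ± 0.21 on the log2 scale at Esrrg (standard error; limma adjusted p = 0.0126), with −0.90 on HFD and 0.54 on NCD. At Adipoq it was 1.27 ± 0.16 (adjusted p = 0.0107), with −0.13 on HFD and −1.40 on NCD, and at Fabp4 1.11 ± 0.21 (adjusted p = 0.0350), with 0.13 and −0.99. At Nr1d1, a clock repressor, it was 0.90 ± 0.16 (0.899; adjusted p = 0.0280), with −0.10 on HFD. The NCD difference followed GC content, as described above, and its part in these values was not tested.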

How the results depend on the processing

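The count of cold-only regions was 203 at a −log10 q of at least 5, and 373 to 740 with equal top peaks, summit clusters or coverage of 50%. Leaving out 1 mouse, which leaves fewer conditions to meet, gave 555 to 7398, with 4271 without mouse 8 and 7398 without mouse 10. Warm-only regions numbered 3 at that q, 71 with equal top peaks, 254 with summits clustered within 500 bp, and 6 to 533 with a mouse left out (533 without mouse 7, 18 without mouse 8, 193 without mouse 11). The mean share of warm-only regions with a peak in cold minus warm NCD mice was −83.3 percentage points and −47.2 with equal top peaks, against 8.60 and 8.45 for cold-only regions. The share at a start site was 29.7% and 38.6% of cold-only and 59.3% and 65.4% of all regions within 500 and 2000 bp.

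Regions higher in the cold by limma on the fold numbered 0 to 15 with a mouse left out (15 without mouse 8), 9 with the depth pair as a covariate (Pigk, Nthl1, Cpox, Gm27940, Irak4, Plekha4, Smpd1, Ubxn7 and Prdx6) and 394 for fragments over background alone. All other settings, fragments without each mouse among them, gave 0 in both directions. The interaction on fragments called 213 regions, and 0 to 624 with a mouse left out (20 without mouse 5, 624 without mouse 7, 474 without mouse 8, 190 without mouse 10, 51 without mouse 11), against 0 for every fit on the fold. The interaction in number of peaks was −0.00895 to 0.141 with a mouse left out, turning sign without mouse 7 (−0.00895) or mouse 11 (−0.00746). The causes were not tested. Of 110 list values with fragments, the sign changed in 1 with median centring, 52 over background alone and 14 to 23 with a mouse left out. Fits on fragments were added after seeing the data. No paired analysis was possible because mice 7 and 8 share no replicate number with mice 10 and 11, and the depth pairs were read from the lists and are no pairing in the labels. Lists hold sites past a threshold only, so a missing peak sets no upper limit on the mark.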
